A study of Homo sapiens with 16 samples.

Results

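RNA from the nuclei of SNU-449 cells was compared with RNA from the nuclei of HepG2 cells, both after transfection with the negative control NC. The comparison rests on 4 of the 16 libraries of the series: SNU-449 nucleus NC replicates 1 and 2, and HepG2 nucleus NC replicates 1 and 2, taken by their sample labels. SNU-449 cells had been grown in RPMI and HepG2 cells in DMEM, each with fetal bovine serum. All 4 cultures had received the NC transfection 48 h before fractionation, and RNA was extracted from the nuclear fraction with Trizol. The other 12 libraries came from cytoplasm and from cells transfected with siPANAD, a pair of siRNAs against PANAD (gene symbol C7orf25), and they were used here to share the estimate of spread and for 2 further comparisons. The series calls the 2 libraries of a group biological duplicates. Each line was grown in its own medium and its counts came in a table of its own, so cell line, medium and handling cannot be told apart.

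Both lines come from human liver tumours, and the labels call both hepatocellular carcinoma cells. HepG2 is a line that keeps many hepatocyte functions, among them the secretion of plasma proteins and lipoproteins, while SNU-449 is widely used as a poorly differentiated liver cancer line. In hepatocytes a network of transcription factors, in which HNF4A, the FOXA proteins and CEBPA bind each other's genes, maintains the transcription of albumin, apolipoproteins, clotting factors and metabolic enzymes. Loss of that programme, together with gain of vimentin, CD44 and fibrillar collagens, is the pattern usually called mesenchymal. Nuclear RNA holds unspliced and retained transcripts as well as mature mRNA, and long non-coding RNAs (lncRNAs) such as MALAT1 and NEAT1 stay there.

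The promoters of 3 liver genes are shown because the results turn on the contrast among them: ALB and FGA were lower in SNU-449 nuclei and FGB, the neighbour of FGA on chromosome 4, was higher in the nucleus, though lower in the cytoplasm. Each sequence runs from 250 bases before to 50 bases after the annotated start of the gene, from RefSeq on GRCh38.p14, and the capitals mark a motif of liver gene promoters, GTTAAT or its reverse complement ATTAAC. The windows are chr4:73404037-73404336 on the plus strand for ALB, chr4:154590693-154590992 on the minus strand for FGA and chr4:154562730-154563029 on the plus strand for FGB.
ALB: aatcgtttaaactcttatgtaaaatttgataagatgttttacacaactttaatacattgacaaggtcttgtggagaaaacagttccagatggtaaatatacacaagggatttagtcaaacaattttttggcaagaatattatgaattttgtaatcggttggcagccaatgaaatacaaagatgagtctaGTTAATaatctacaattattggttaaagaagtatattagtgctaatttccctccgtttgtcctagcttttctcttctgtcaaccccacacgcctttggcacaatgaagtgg
FGA: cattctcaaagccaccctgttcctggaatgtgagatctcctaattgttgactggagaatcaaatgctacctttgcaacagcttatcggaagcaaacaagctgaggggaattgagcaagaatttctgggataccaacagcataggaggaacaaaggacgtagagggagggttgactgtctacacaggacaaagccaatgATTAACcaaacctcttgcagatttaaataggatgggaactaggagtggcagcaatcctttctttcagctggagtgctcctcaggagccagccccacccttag
FGB: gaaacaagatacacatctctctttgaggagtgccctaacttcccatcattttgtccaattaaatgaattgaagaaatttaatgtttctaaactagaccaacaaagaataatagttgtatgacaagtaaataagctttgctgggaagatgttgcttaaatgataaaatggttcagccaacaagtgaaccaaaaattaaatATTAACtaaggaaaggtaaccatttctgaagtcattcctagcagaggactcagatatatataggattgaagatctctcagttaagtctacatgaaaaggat

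All 3 promoters held the motif, at position -61 in ALB, -52 in FGA and -51 in FGB relative to the RefSeq start. On either strand, GTTAAT was found in 8 of the 35 plasma protein promoters in the RefSeq table (22.9%), in 3 of 13 apolipoprotein promoters (23.1%), in 1 of 31 promoters of mesenchymal genes (3.23%) and in 0 of 20 collagen promoters. Over all 27305 promoters of the same length the share was 6.89%, and over the 12899 promoters of genes tested it was 4.1%. The HNF4 core CAAAGTC stood in 3 of 35 plasma protein promoters (8.57%) and in 1 of 13 apolipoprotein promoters (7.69%), and in 0 of 31 mesenchymal and 0 of 20 collagen promoters, against 3.43% of all promoters. The AP-1 site TGANTCA was in 3 of 31 mesenchymal promoters (9.68%) and 0 of 20 collagen promoters, against 7.76% of all, and the TEAD site CATTCC in 6 of 31 (19.4%) and 1 of 20 (5.0%), against 14% of all. Plasma protein promoters held AP-1 in 0 of 35 and the TEAD site in 8 of 35 (22.9%), FGA and FGB among them. The TATA box TATAAA was in 6 of 35 plasma protein promoters (17.1%) and in 12% of all. Over the promoters of genes tested the shares were 2.6% for HNF4, 4.89% for AP-1, 11.1% for TEAD and 6.34% for the TATA box. A match is a description of the letters in the window, and the sets are small.

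Among the lncRNAs higher in SNU-449 nuclei were MIR503HG and MIR100HG, transcripts of loci that hold microRNA clusters. The mature microRNAs are shown because these long transcripts, not the microRNAs, were measured. Sequences are from RefSeq on GRCh38.p14, with the seed, bases 2 to 8, in capitals.
hsa-miR-503-5p: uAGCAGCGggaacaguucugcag
hsa-miR-424-5p: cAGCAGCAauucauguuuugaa
hsa-miR-100-5p: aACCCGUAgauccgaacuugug
hsa-let-7a-5p: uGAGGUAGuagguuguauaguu
hsa-miR-125b-5p: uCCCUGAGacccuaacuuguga

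The miR-503 and miR-424 genes lie together on chromosome X and their seeds share all but the last base. The miR-100, let-7a and miR-125b genes of the second cluster lie on chromosome 11 and have unrelated seeds.

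The SNU-449 libraries held 17695986 and 17682648 counts and the HepG2 libraries 16238235 and 17618795. Of 67938 gene identifiers, 20459 passed the filter on low counts and were tested with edgeR's quasi-likelihood test, with Benjamini-Hochberg adjusted p-values over all of them and a threshold of 0.05. Levels are given as CPM, counts relative to library size scaled by TMM to the bulk of genes, which cannot show a change shared by all genes. They are shares of the RNA of a culture, so fewer cells with a transcript and less of it per cell cannot be told apart. Within a group the 2 libraries differed by more than sampling noise, with a Pearson correlation of log2 CPM across genes of 0.9956 in SNU-449 and 0.9948 in HepG2. C7orf25, the target of siPANAD, had 5 and 7 counts in the SNU-449 control nuclei and 0 and 2 counts in the HepG2 control nuclei, too few to test.

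The hepatocyte markers went with HepG2 and the mesenchymal marker with SNU-449. ALB, which encodes serum albumin, had 0.132 and 0.213 CPM in SNU-449 nuclei and 7938 and 8252 CPM in HepG2 nuclei, a log2 fold change of -15.46 ± 0.26 (adjusted p = 4.29e-40). The value after ± here and below is the size of the log2 fold change divided by the square root of the test's F statistic. It is not a fitted standard error. Where a line had few counts, as ALB with 3 and 5 in SNU-449 nuclei, it can be smaller than the counting error. APOA1, the main protein of high-density lipoprotein, had 0.307 and 0.213 CPM in SNU-449 nuclei and 513 and 768 CPM in HepG2 nuclei (-11.23 ± 0.25, adjusted p = 3.16e-37). VIM, the intermediate filament vimentin, had 1358 and 1249 CPM in SNU-449 nuclei and no count in either HepG2 library, so it was at least 17900-fold higher in SNU-449, taking 3 counts summed over both HepG2 libraries as the floor.

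The libraries of the lines did not overlap for any of the 3 markers. How many of all genes had no overlap was not counted, and 75.5% passed the test, so this does not set the markers apart. All 3 genes are on different chromosomes, ALB at chr4:73397114-73421412, APOA1 at chr11:116835751-116837950 and VIM at chr10:17228259-17237593 (GRCh38). VIM shares 24.4% of its exonic bases with a transcript on the opposite strand, and whether the counting used strand is not given in the sources used here.

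**Figure D1:**
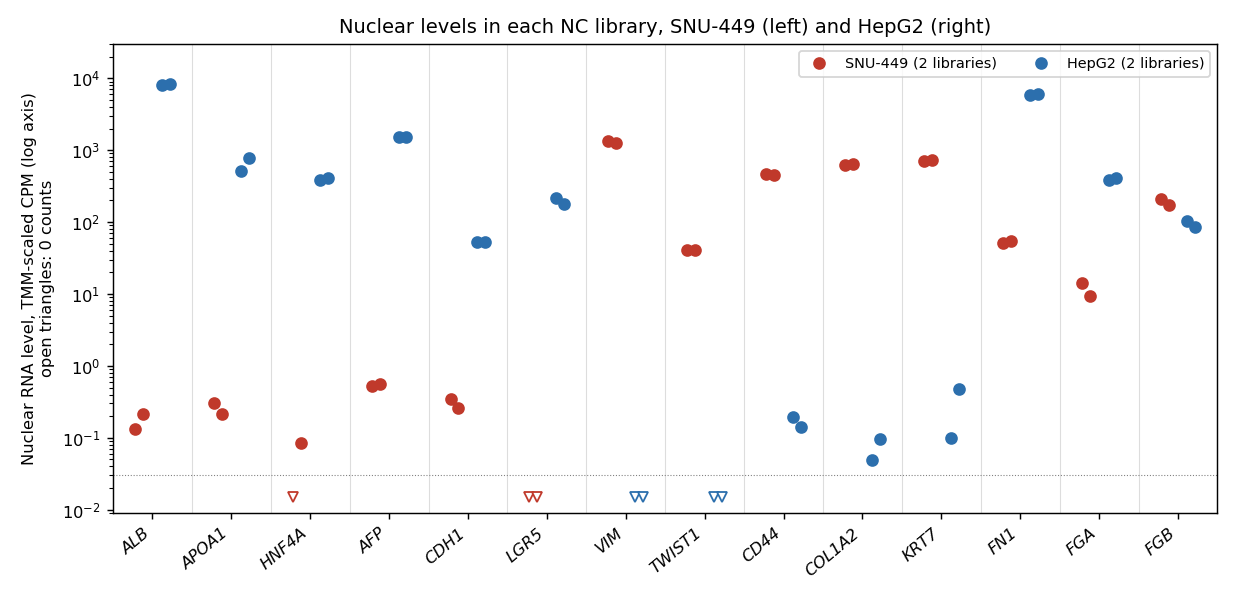
Levels of 14 genes in the nuclear NC libraries, 1 point a library, with SNU-449 left of HepG2 in each pair, on a log10 axis of CPM after TMM scaling. ALB, APOA1, HNF4A, AFP, CDH1, LGR5, FN1 and FGA are lower in both SNU-449 libraries, and VIM, TWIST1, CD44, COL1A2, KRT7 and FGB are higher in both.

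For all of these 14 genes but FGB the distance between lines was far larger than that between replicates. Most were picked for a large difference or after their values were seen, so this distance follows from the choice. The pairs of FGB libraries differed by about 2-fold between the lines.

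Across the genome, 15451 of the 20459 genes (75.5%) passed the test, 7992 higher (39.1%) and 7459 lower (36.5%) in SNU-449 nuclei. Tested against a 2-fold change, 8413 genes passed (41.1%), 4295 higher (21.0%) and 4118 lower (20.1%). The median log2 fold change over all genes was 0.05 and the median of its absolute value 1.09. With 3 genes in 4 called, a list stands out here by its direction or its size rather than by the number of its members called.

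The 19 lists described below are set against these shares. They hold liver functions, lineage and matrix genes, signalling targets, growth control genes, lncRNAs and markers of other cell types.

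**Figure D2:**
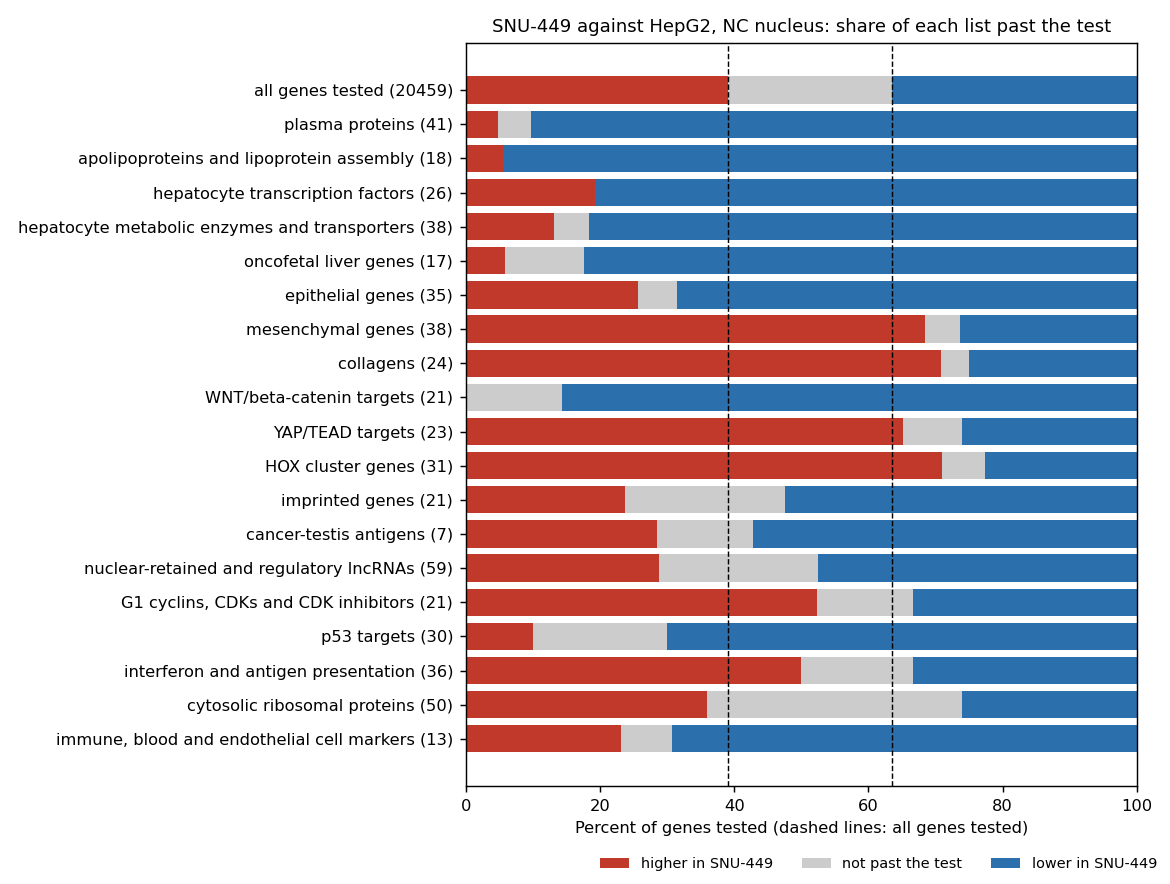
Percent of the tested members of each of the 19 gene lists that were higher (left), not past the test (middle) or lower (right) in SNU-449 against HepG2 nuclei, with the number tested in parentheses and dashed lines at the shares of all genes. The plasma protein bar is mostly lower, with 37 of 41, while the collagen bar is mostly higher, with 17 of 24.

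In the plot of the lists the liver lists lie mostly on the lower side, past the dashed lines for all genes, and the mesenchymal, collagen, YAP/TEAD and HOX lists lie mostly on the higher side. The direction of each list's median was the same with DESeq2 size factors, library totals and upper quartile scaling.

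Plasma proteins, the secreted products of hepatocytes, were almost all lower in SNU-449 nuclei. Of 48 genes 41 were tested, 37 were lower, 2 were higher and 2 were not called, with a median log2 fold change of -7.00, or -6.78 with the 4 genes that had no count in 1 line set at their bounds. Together the 48 genes had 599.4 and 523.6 CPM in SNU-449 and 36960 and 38120 CPM in HepG2.

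AHSG, the carrier protein fetuin A, had 0.0439 and 0.0854 CPM in SNU-449 nuclei (3 counts in all) and 5706 and 6627 CPM in HepG2 nuclei, a HepG2 to SNU-449 ratio of 95200 (exact 95% counting interval 32600 to 461000). A2M, the protease inhibitor alpha-2-macroglobulin, had no count in SNU-449 and 1431 and 1481 CPM in HepG2, at least 22400-fold lower in SNU-449. TF, transferrin, had 0.877 and 0.427 CPM in SNU-449 and 3531 and 3610 CPM in HepG2 (-12.41 ± 0.23). Each of these had levels in both HepG2 libraries that lay above 1000 CPM and SNU-449 levels under 1 CPM.

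SERPINA1, the inhibitor of neutrophil elastase, had 1.71 and 1.62 CPM in SNU-449 and 5144 and 4548 CPM in HepG2 (-11.50 ± 0.23). Among clotting factors, F5 had no count in SNU-449 and 227 and 189 CPM in HepG2, at least 3190-fold lower in SNU-449. Complement C3 remained easily detected, with 167.8 and 163.1 CPM in SNU-449 and 3419 and 3269 CPM in HepG2 (-4.34 on the log2 scale).

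The 3 fibrinogen chains, which lie side by side on chromosome 4 and form 1 protein, did not move together. FGA, the alpha chain, had 14.2 and 9.35 CPM in SNU-449 nuclei and 383.3 and 413.9 CPM in HepG2 nuclei (-5.08 ± 0.15, adjusted p = 8.71e-33). FGG, the gamma chain, had 71.1 and 54.9 CPM in SNU-449 and 320.9 and 318.7 CPM in HepG2 (-2.34 ± 0.13). FGB, the beta chain, had 211.4 and 172.1 CPM in SNU-449 and 103.5 and 86.5 CPM in HepG2, 1.01 ± 0.12 higher on the log2 scale (adjusted p = 4.23e-10).

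In the nucleus both SNU-449 libraries lay above both HepG2 libraries for FGB, and below them for FGA and FGG. In the cytoplasm of the same NC cells FGB was lower in SNU-449, with 67.3 and 55.7 CPM in SNU-449 and 86.8 and 72.0 CPM in HepG2 (-0.36 on the log2 scale, adjusted p = 0.00939), and the interaction between line and fraction was 1.38 (adjusted p = 1.54e-08).

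Of 20 genes for apolipoproteins and lipoprotein assembly 18 were tested, of which 17 were lower and 1 was higher, with a median log2 fold change of -9.01, or -8.49 with 6 genes at their bounds. APOB, the structural protein of very-low-density lipoprotein, had no count in SNU-449 nuclei and 5698 and 4320 CPM in HepG2 nuclei, at least 77000-fold lower in SNU-449. APOA2, a second protein of high-density lipoprotein, had no count in SNU-449 and 1101 and 1016 CPM in HepG2, at least 16300-fold lower. APOE, which is made by many cell types, had 96.5 and 76.5 CPM in SNU-449 and 1581 and 2114 CPM in HepG2 (-4.42 on the log2 scale).

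The lipoprotein genes thus covered a range from none detected to a level still well above the floor.

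All 26 hepatocyte transcription factor genes on the list were tested, and 21 were lower and 5 higher, with a median of -2.79. HNF4A, a nuclear receptor central to hepatocyte identity, had 0 and 0.0854 CPM in SNU-449 nuclei and 389.1 and 406.3 CPM in HepG2 nuclei, a HepG2 to SNU-449 ratio of 9200 (2550 to 76000). NR1H4, the bile acid receptor FXR, had no count in SNU-449 and 29.2 and 32.3 CPM in HepG2, at least 474-fold lower. NR0B2, a repressor induced by that receptor, had 0.0877 and 0.0427 CPM in SNU-449 and 129 and 134 CPM in HepG2, a HepG2 to SNU-449 ratio of 2030 (696 to 9860).

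The differences in this list varied widely in size, and FOXA2, a pioneer factor of the liver, was lower at -0.72 on the log2 scale. RXRA, a partner of many nuclear receptors, was among the higher genes, at 0.65 on the log2 scale. NR2F2, the nuclear receptor COUP-TFII, had 79.5 and 91.4 CPM in SNU-449 and 11.02 and 8.25 CPM in HepG2 (3.15 ± 0.14), and NR5A2, a regulator of bile acid synthesis, was 3.17 ± 0.24 higher on the log2 scale.

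Of 47 genes for hepatocyte enzymes, transporters and receptors, 38 were tested, 31 were lower, 5 were higher and 2 were not called, with a median of -3.35, or -2.98 with 8 genes at their bounds. ASGR2, a subunit of the asialoglycoprotein receptor, had no count in SNU-449 nuclei and 373 and 409 CPM in HepG2 nuclei, at least 6030-fold lower.

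Higher members named here were at very low levels. SLCO1B1, a bile acid and drug uptake transporter, had 0.57 and 0.64 CPM in SNU-449 nuclei and no count in HepG2 nuclei, at least 8.34-fold higher. TM4SF4 was 1.75 ± 0.59 higher on the log2 scale, but without HepG2 replicate 2 the value was 1.23 and no longer passed (adjusted p = 0.106).

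Of 19 oncofetal and liver progenitor genes 17 were tested, 14 were lower, 1 was higher and 2 were not called, with a median of -3.84. AFP, the fetal counterpart of albumin, had 0.526 and 0.555 CPM in SNU-449 nuclei and 1541 and 1502 CPM in HepG2 nuclei (-11.44 ± 0.21). LIN28B, an RNA-binding protein that blocks let-7 maturation, had no count in SNU-449 and 20.4 and 15.2 CPM in HepG2, at least 273-fold lower. CD24, a surface glycoprotein of progenitor cells, was the member that was higher, at 187 and 159.3 CPM in SNU-449 and 1.53 and 1.19 CPM in HepG2 (6.99 ± 0.19).

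Targets of the WNT and beta-catenin pathway were lower in SNU-449 nuclei wherever they were called. Of 23 genes 21 were tested, 18 were lower, 0 were higher and 3 were not called, with a median of -4.52. In the liver this pathway sets the programme of the hepatocytes around the central vein. In the siPANAD nuclei 2 members of the list were higher.

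LGR5, a receptor for R-spondins, had no count in SNU-449 nuclei and 214.4 and 177.7 CPM in HepG2 nuclei, at least 3010-fold lower. NKD1, a feedback inhibitor of the pathway, had 0.175 and 0.384 CPM in SNU-449 and 436 and 428 CPM in HepG2 (-10.55 ± 0.22). AXIN2, another feedback inhibitor, had 23.3 and 24.3 CPM in SNU-449 and 147.8 and 149.3 CPM in HepG2 (-2.64 on the log2 scale). CCND1 and MYC were among the members not called.

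Epithelial genes were lower more often than higher. Of 38 genes 35 were tested, 24 were lower, 9 were higher and 2 were not called, with a median of -1.67. CDH1, E-cadherin, had 0.351 and 0.256 CPM in SNU-449 nuclei and 53.06 and 52.69 CPM in HepG2 nuclei (-7.42 on the log2 scale). EPCAM, an epithelial adhesion molecule, had 0.219 and 0.0854 CPM in SNU-449 and 114 and 105 CPM in HepG2 (-9.44 ± 0.23). KRT8 and KRT18, the keratin pair of hepatocytes, were lower by much less, at -2.50 and -1.62 on the log2 scale.

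Not all epithelial genes went that way, and the bile duct keratins went in opposite directions. KRT7 had 717.8 and 719.7 CPM in SNU-449 nuclei and 0.0988 and 0.474 CPM in HepG2 nuclei (11.24 ± 0.24). KRT19 had 0.0439 and 0.0427 CPM in SNU-449 and 154 and 178 CPM in HepG2, a HepG2 to SNU-449 ratio of 3850 (1070 to 31800). CLDN2, a pore-forming tight junction protein, was also higher, at 75.2 and 72.7 CPM in SNU-449 and 7.31 and 5.36 CPM in HepG2 (3.55 ± 0.14).

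Of 44 mesenchymal genes 38 were tested, 26 were higher, 10 were lower and 2 were not called, with a median of 1.53. Together the 44 genes had 8630 and 7968 CPM in SNU-449 and 10240 and 10790 CPM in HepG2, so their sum was lower in SNU-449. FN1, described below, made 5789 and 6112 CPM of the HepG2 sums. TWIST1, a transcription factor of mesenchyme, had 40.48 and 40.42 CPM in SNU-449 nuclei and no count in HepG2 nuclei, at least 557-fold higher. CD44, a hyaluronan receptor, had 464.9 and 447.7 CPM in SNU-449 and 0.198 and 0.142 CPM in HepG2 (11.34 ± 0.23). CDH2, N-cadherin, which hepatocytes also express, was 0.74 higher on the log2 scale in the nucleus and lower, at -0.52, in the cytoplasm, and ZEB1 was not called.

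FN1, fibronectin, is a mesenchymal matrix gene that the liver also secretes into plasma, and it went the other way. It had 50.65 and 55.45 CPM in SNU-449 nuclei and 5789 and 6112 CPM in HepG2 nuclei (-6.81 ± 0.17, adjusted p = 6.55e-36). ENG, an endothelial TGF-beta co-receptor, and LOX, a collagen cross-linking enzyme, were lower too, at -7.20 ± 0.24 and -4.55 ± 0.19 on the log2 scale.

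Of 27 collagen genes 24 were tested, 17 were higher, 6 were lower and 1 was not called, with a median of 3.23. COL6A3, a chain of microfibrillar collagen VI, had 1127 and 1234 CPM in SNU-449 nuclei and 0.0494 and 0.142 CPM in HepG2 nuclei (13.48 ± 0.24). COL1A2, a chain of fibrillar collagen I, had 617 and 639 CPM in SNU-449 and 0.0494 and 0.0949 CPM in HepG2, a SNU-449 to HepG2 ratio of 8660 (2960 to 42000). COL4A1, of basement membrane collagen IV, had 493 and 492 CPM in SNU-449 and 0.148 and 0 CPM in HepG2, a ratio of 6790 (2320 to 32900).

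The collagens that were lower included cartilage types. COL9A3, a chain of collagen IX, had 1.4 and 1.28 CPM in SNU-449 nuclei and 536 and 733 CPM in HepG2 nuclei (-8.88 ± 0.19). COL9A2 of the same collagen was lower at -6.01 ± 0.15 and COL16A1 at -5.03 ± 0.16 on the log2 scale.

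All 23 targets and partners of YAP and TEAD, which respond to cell shape and contact, were tested, and 15 were higher, 6 were lower and 2 were not called, with a median of 0.99. CCN1, a secreted matricellular protein, had 871.5 and 1042 CPM in SNU-449 nuclei and 32.0 and 30.3 CPM in HepG2 nuclei (4.94 on the log2 scale). AMOTL1, a junction protein that binds YAP, was 8.39 ± 0.26 higher and MYOF, a membrane repair protein, 7.22 ± 0.17 higher. YAP1 itself was lower, at -1.04 on the log2 scale, as were TEAD3 at -1.45 ± 0.12 and TEAD4 at -1.21 ± 0.12.

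HOX genes, which encode position along the body axis and sit in 4 clusters, were higher more often than lower. Of 39 genes 31 were tested, 22 were higher, 7 were lower and 2 were not called, with a median of 4.15, and of 3.48 when the 12 genes with no count in 1 line were set at their bounds. HOXB5 had 18.1 and 17.8 CPM in SNU-449 nuclei and no count in HepG2 nuclei, at least 247-fold higher. HOXB9, at 8.42 and 10.4 CPM in SNU-449, and HOXB13, at 10.7 and 8.07 CPM, likewise had no count in HepG2, and were at least 130-fold and 129-fold higher.

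All 7 lower members belonged to the HOXA and HOXD clusters and none to HOXB or HOXC. HOXA3 had 5.53 and 6.92 CPM in SNU-449 nuclei and 25.3 and 23.95 CPM in HepG2 nuclei (-1.98 on the log2 scale). HOXD4 had 1.18 and 0.98 CPM in SNU-449 and 10.08 and 11.19 CPM in HepG2 (-3.29 on the log2 scale). HOXD3, lower at -3.46 ± 0.47, and HOXD1 overlap other transcripts over 62.2% and 58.1% of their exonic bases, so their counts are uncertain.

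**Figure D3:**
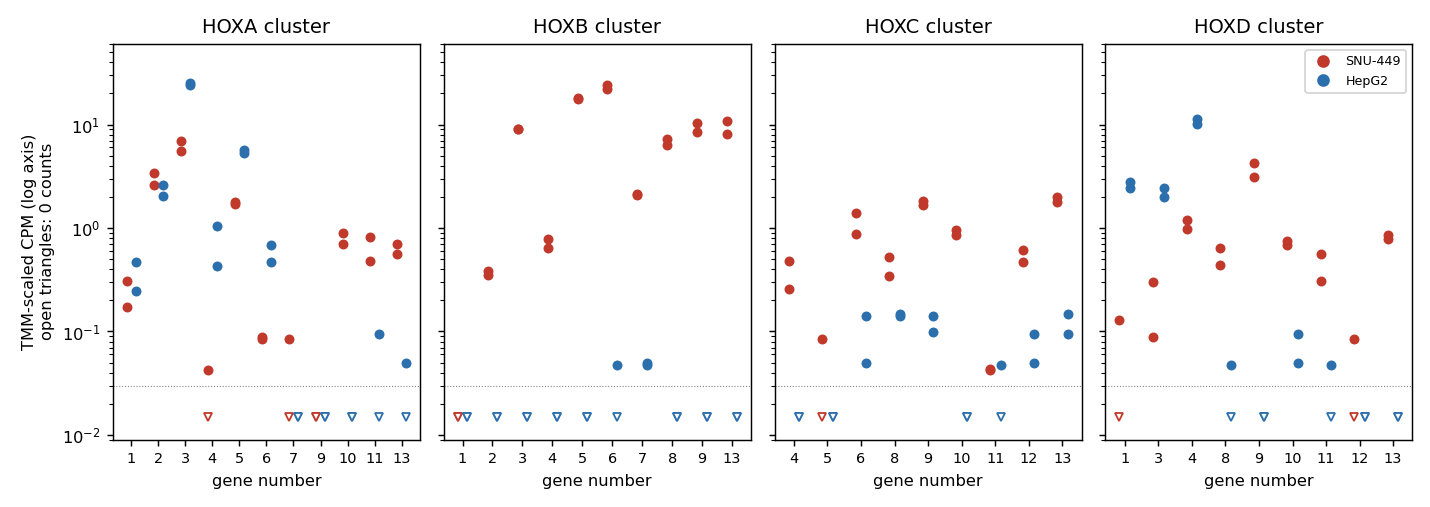
Levels of the HOX genes in the nuclear NC libraries by cluster and gene number, 1 point a library, with SNU-449 left of HepG2, on a log10 axis of CPM after TMM scaling, and open triangles for libraries with 0 counts. Every tested HOXB gene stands higher in SNU-449, while HOXA3, HOXA5, HOXA6, HOXD3 and HOXD4 stand lower.

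The plot of HOX genes by cluster shows both directions within clusters A and D, where the called genes with low numbers were lower and those with high numbers were higher. Most HOX levels were under 10 CPM in both lines.

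Imprinted genes, which are transcribed from 1 parental copy, showed no shared direction. Of 29 genes 21 were tested, 5 were higher, 11 were lower and 5 were not called, with a median of -0.65. MEG3, a maternally expressed lncRNA, had 60.5 and 67.5 CPM in SNU-449 nuclei and 0.247 and 0.0474 CPM in HepG2 nuclei (8.72 ± 0.26). DLK1, the paternally expressed gene of the same domain, had 23.2 and 22.7 CPM in SNU-449 and 472.8 and 497.8 CPM in HepG2 (-4.40 on the log2 scale).

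Thus DLK1 and MEG3, of the same domain, differed in opposite directions. MEG8, a lncRNA near MEG3 on chromosome 14, had 1.27 and 1.32 CPM in SNU-449 nuclei and 0.0494 and 0 CPM in HepG2 nuclei. Like MEG3 it was higher in SNU-449, at a SNU-449 to HepG2 ratio of 53.6 (9.27 to 2150). PEG3, a paternally expressed zinc finger gene, had no count in SNU-449 nuclei and 197 and 177 CPM in HepG2 nuclei, at least 2880-fold lower. IGF2 was lower at -6.84 ± 0.20, although 73.7% of its exonic bases overlap another transcript on the same strand, and H19 was not called.

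Cancer-testis genes, which are silent in most adult tissues, were mostly under the filter: 7 of 30 were tested, 2 were higher, 4 were lower and 1 was not called, with a median of -3.69, or -2.75 with 4 genes at their bounds. MAGEA1 had 24.5 and 26.7 CPM in SNU-449 nuclei and no count in HepG2 nuclei, at least 353-fold higher. PRAME had no count in SNU-449 and 10.6 and 8.49 CPM in HepG2, at least 147-fold lower.

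Among lncRNAs, 3728 of 15828 genes in the files were tested and 2562 were called (68.7%), 1144 higher (30.7%) and 1418 lower (38.0%) in SNU-449 nuclei. Among 14414 protein-coding genes 11463 were called (79.5%), 6224 higher (43.2%) and 5239 lower (36.3%). The median log2 fold change was -0.21 for lncRNAs and 0.12 for protein-coding genes, and the median of its absolute value was 1.53 for lncRNAs and 0.98 for protein-coding genes. Past 2-fold, 1700 lncRNAs (45.6%) were called, 740 higher (19.8%) and 960 lower (25.8%), and 5783 protein-coding genes (40.1%), 3170 higher (22.0%) and 2613 lower (18.1%).

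Within their class lncRNAs were more often lower than higher in SNU-449, and protein-coding genes were more often higher than lower, a difference in balance that was not tested. All lncRNAs together took 1.57% and 1.67% of counts in SNU-449 nuclei and 2.12% and 2.04% in HepG2 nuclei. Their depth was low: the median lncRNA tested had 0.695 CPM in SNU-449 and 0.755 CPM in HepG2, against 17.8 and 17.4 CPM for the median protein-coding gene.

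Many genes were confined to 1 line at this depth, counted as called genes with at least 1 CPM in one line and at most 3 counts in the other. There were 180 such lncRNAs in SNU-449 (4.83% of those tested) and 207 in HepG2 (5.55%). Among protein-coding genes there were 671 in SNU-449 (4.66%) and 385 in HepG2 (2.67%).

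**Figure D4:**
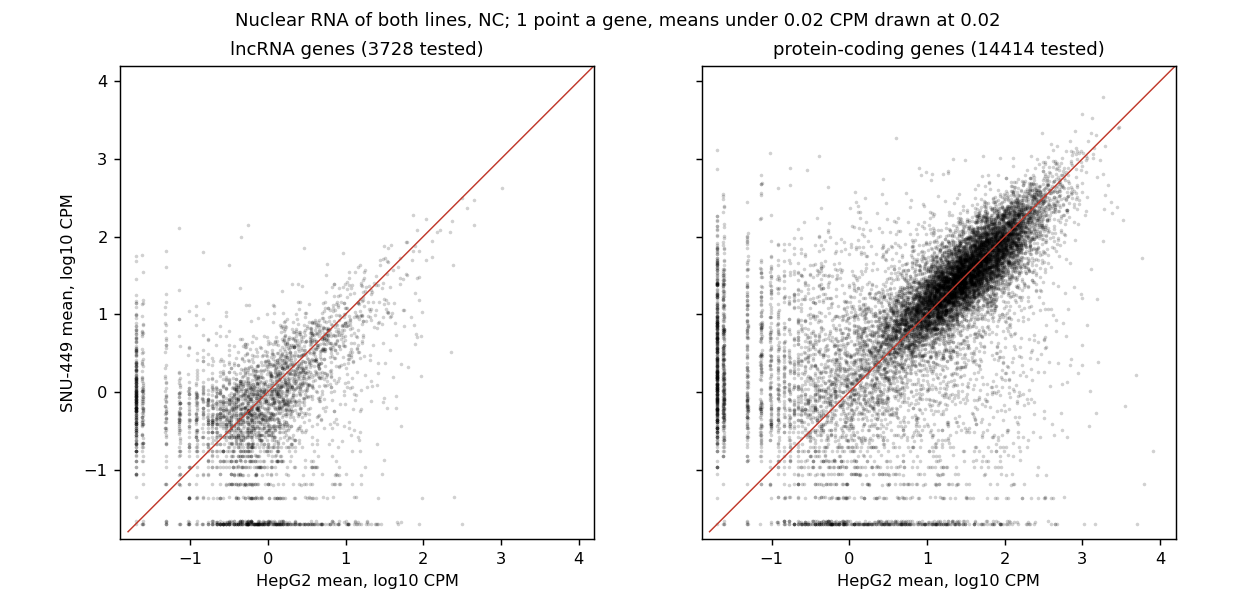
Mean nuclear level in SNU-449 (vertical) against HepG2 (horizontal) for each tested lncRNA gene, left, and each tested protein-coding gene, right, in log10 CPM, with the line of equal levels. Most lncRNAs lie near or under 1 CPM in both lines, and bands along both edges are genes with few or no counts in 1 line.

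The plots of lncRNA and protein-coding levels show the lower levels of lncRNAs and the wide scatter about equality that goes with them. Points on the edges are the genes described next.

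Abundant lncRNAs found in SNU-449 and close to absent in HepG2 included SNHG15, a small nucleolar RNA host gene, with 127.8 and 129.6 CPM in SNU-449 nuclei and 0.0494 and 0.0949 CPM in HepG2 nuclei, a SNU-449 to HepG2 ratio of 1770 (607 to 8600). MIR503HG, at chrX:134543337-134546632, had 57.1 and 60.2 CPM in SNU-449 and 0 and 0.0474 CPM in HepG2, a ratio of 2430 (435 to 95800). MIR100HG had 7.24 and 7.30 CPM in SNU-449 and 0.0494 and 0.0474 CPM in HepG2, a ratio of 150 (41.3 to 1250).

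Both SNU-449 libraries were high for each of the 3. The microRNAs shown above lie within or next to the last 2. The mature miR-424-5p stretch lies just outside the annotated span of MIR503HG, whose exons overlap the MIR424 gene. MAGI2-AS3, an antisense transcript at chr7:79452877-79471208, had 48.7 and 47.1 CPM in SNU-449 and no count in HepG2, at least 660-fold higher. CRNDE, a transcript raised in colorectal tumours, had 36 and 33.1 CPM in SNU-449 and 0.0494 and 0 CPM in HepG2, a ratio of 1430 (256 to 56500). Among lncRNAs counted in both lines, LINC03061 was 7.96 ± 0.25, ENSG00000272622 7.72 ± 0.21 and LINC02615 7.07 ± 0.24 higher on the log2 scale.

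On the HepG2 side, ENSG00000260573 had no count in SNU-449 nuclei and 307 and 326 CPM in HepG2 nuclei, at least 4880-fold lower. It spans chr16:50407666-50546347, just before NKD1 on the same strand, the WNT target that was also lower. FIRRE, which shapes nuclear architecture, had no count in SNU-449 and 15.7 and 16.1 CPM in HepG2, at least 245-fold lower. HNF4A-AS1, antisense to HNF4A, had no count in SNU-449 and 10.5 and 9.72 CPM in HepG2, at least 156-fold lower.

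HNF4A and its antisense transcript were thus both lower. LINC00261, a FOXA2 neighbour on chromosome 20, had 1.67 and 1.49 CPM in SNU-449 and 92.7 and 94.2 CPM in HepG2 (-5.88 ± 0.16), with 86.1% of its exonic bases shared with another transcript on the same strand. SSTR5-AS1 was lower at -7.13 ± 0.23, LINC01234 at -6.85 ± 0.24 and ZMIZ1-AS1 at -6.14 ± 0.21 on the log2 scale.

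The list of 77 nuclear and cancer-associated lncRNAs had 59 members tested, 17 higher, 28 lower and 14 not called, with a median of -0.45. MALAT1, the abundant transcript of nuclear speckles, did not differ beyond its spread, with 317.3 and 308.6 CPM in SNU-449 nuclei and 317.5 and 309.4 CPM in HepG2 nuclei (-0.00 ± 0.11, adjusted p = 0.986). NEAT1, the scaffold of paraspeckles and the neighbour of MALAT1 on chromosome 11, had 424.1 and 425 CPM in SNU-449 and 937 and 1123 CPM in HepG2 (-1.28 ± 0.13, adjusted p = 4.28e-12). MALAT1 levels overlapped between the lines and NEAT1 levels did not.

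Genes of the G1 phase were mixed, with 11 of 21 higher, 7 lower and 3 not called, and a median of 0.29. CCND2, a D-type cyclin, had 0.0439 and 0 CPM in SNU-449 nuclei and 5.73 and 4.88 CPM in HepG2 nuclei, a HepG2 to SNU-449 ratio of 245 (43.5 to 9720). CCND3, another D-type cyclin, had 78 and 77.3 CPM in SNU-449 and 9.09 and 8.44 CPM in HepG2 (3.15 ± 0.13). CDK6, their kinase partner, had 111.2 and 110.4 CPM in SNU-449 and 73.4 and 69.2 CPM in HepG2 (0.64 ± 0.11).

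The D-type cyclins thus differed in opposite directions, while CCND1 and CDK4 were not called. The INK4 inhibitors at one locus, CDKN2A and CDKN2B, were both lower. CDKN2A was at -4.33 ± 0.50 on the log2 scale, and CDKN2B had 0.0439 and 0 CPM in SNU-449 and 4.84 and 4.93 CPM in HepG2.

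Of 30 p53 target genes, all tested, 21 were lower, 3 were higher and 6 were not called, with a median of -1.10. CDKN1A, the p21 cyclin-dependent kinase inhibitor, had 36.1 and 36.0 CPM in SNU-449 nuclei and 115.6 and 134 CPM in HepG2 nuclei (-1.79 on the log2 scale). GDF15, a secreted stress cytokine, had 349 and 344 CPM in SNU-449 and 1848 and 2066 CPM in HepG2 (-2.50 on the log2 scale). CCNG1, PHLDA3 and BBC3 were the 3 that were higher, at 1.14 ± 0.13, 0.91 ± 0.14 and 0.37 ± 0.13.

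BBC3 rests on 1 library, since without HepG2 replicate 1 its value was 0.12 (adjusted p = 0.476). In the siPANAD nuclear libraries none of these 3 was higher: CCNG1 was at -0.04, PHLDA3 at -0.53 and BBC3 at -0.63 on the log2 scale.

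Of 38 interferon and antigen presentation genes 36 were tested, 18 were higher, 12 were lower and 6 were not called, with a median of 0.40. CD274, the checkpoint ligand PD-L1, had 8.38 and 9.86 CPM in SNU-449 nuclei and 0.0494 and 0.142 CPM in HepG2 nuclei (6.46 ± 0.42). CD74, the invariant chain of class II, had 0.175 and 0.171 CPM in SNU-449 and 107 and 89.6 CPM in HepG2 (-9.09 ± 0.26). Of the class I genes, HLA-B was higher at 2.00 and HLA-C higher at 1.17 on the log2 scale, and counts of such near-identical genes are uncertain.

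Cytosolic ribosomal protein genes, whose mRNAs are mainly cytoplasmic, were split, with 18 of 50 higher, 13 lower and 19 not called, and a median of 0.20. Their summed level was 24690 and 20480 CPM in SNU-449 nuclei and 16450 and 19720 CPM in HepG2 nuclei, so SNU-449 replicate 1 stood highest. The interaction between line and fraction was positive for 18 of the 50 and negative for 0, against 20.0% and 13.4% of all genes. Over all genes that balance depended on scaling, as given below. How much cytoplasmic RNA the nuclear fractions carried over was not tested. RPL8 was 1.64 ± 0.14 higher and RPL37 was lower at -1.51 ± 0.38. RPS12, at -1.21 ± 0.37, no longer passed without SNU-449 replicate 2 (-1.03, adjusted p = 0.0926) or without HepG2 replicate 2 (-0.72, adjusted p = 0.130).

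Markers of immune, blood and endothelial cells were mostly at low levels, with LYZ in HepG2 and CD14 in SNU-449 as exceptions. Of 23 such genes 13 were tested, 3 were higher, 9 were lower and 1 was not called, with a median of -3.30, or -2.82 with 6 genes at their bounds, and the 23 summed to 23.42 and 21.64 CPM in SNU-449 nuclei and 118.1 and 143.1 CPM in HepG2 nuclei. LYZ, lysozyme, made most of the HepG2 sum, with no count in SNU-449 and 92 and 115.3 CPM in HepG2. CD14, a lipopolysaccharide co-receptor that hepatocytes also secrete, made most of the SNU-449 sum, with 16.9 and 15.5 CPM in SNU-449 and 0.395 and 0.664 CPM in HepG2 (4.91 ± 0.24). Among markers that define whole lineages, CD3E of T cells and KDR of endothelium had no count in any of the 4 libraries, and PTPRC of leukocytes had under 0.1 CPM in SNU-449 and no count in HepG2. PECAM1, of endothelium, had 1.36 and 1.07 CPM in SNU-449 and 8.94 and 8.21 CPM in HepG2. Whether other cells had any part in the difference between lines was not tested.

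Several further protein-coding genes were abundant in SNU-449 nuclei and nearly absent from HepG2 nuclei. IGFBP7, a secreted binder of insulin-like growth factors, had 1169 and 1030 CPM in SNU-449 and 0.247 and 0.569 CPM in HepG2 (11.36 ± 0.24). PADI3, which converts arginine to citrulline in proteins, had 745 and 754 CPM in SNU-449 and no count in HepG2, at least 10300-fold higher. TMSB4X, an actin-binding peptide made by most cells, had 501.2 and 442.2 CPM in SNU-449 and 0.0494 and 0.0949 CPM in HepG2, a SNU-449 to HepG2 ratio of 6490 (2220 to 31500).

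The last is a widely transcribed gene, and so is NSD1, a histone H3 lysine methyltransferase. NSD1 had 67.2 and 70.2 CPM in SNU-449 nuclei and 0.198 and 0.285 CPM in HepG2 nuclei (8.11 ± 0.23). Its cytoplasmic levels were 22.5 and 25.8 CPM in SNU-449 and 0.073 and 0 CPM in HepG2, so the gene was close to absent from both HepG2 fractions. ITGA3, an integrin chain that binds laminin, had 2040 and 1698 CPM in SNU-449 nuclei and 4.10 and 3.84 CPM in HepG2 nuclei (8.88 ± 0.20).

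In the other direction, SLC2A3, the glucose transporter GLUT3, had 0.0877 and 0 CPM in SNU-449 nuclei and 590 and 581 CPM in HepG2 nuclei, a HepG2 to SNU-449 ratio of 13500 (3750 to 112000). DPP4, the peptidase that inactivates incretins, had 0.307 and 0.213 CPM in SNU-449 and 312 and 251 CPM in HepG2 (-10.05 ± 0.22). ADAMTS2, which trims procollagen, had no count in SNU-449 and 447 and 446 CPM in HepG2, at least 6880-fold lower. For all 3 the SNU-449 libraries were under 1 CPM and the HepG2 libraries above 200 CPM.

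GAPDH, a glycolytic enzyme, had 971 and 1031 CPM in SNU-449 nuclei and 893 and 832 CPM in HepG2 nuclei, a difference that did not pass (0.21 ± 0.14, adjusted p = 0.146). NXF1, the main mRNA export receptor, had 101.7 and 128 CPM in SNU-449 and 204.6 and 200.9 CPM in HepG2 (-0.82 ± 0.12, adjusted p = 1.94e-08).

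The difference between lines was also measured in the cytoplasm of the same NC cells, where 14571 genes were called (71.2%). Of 12126 genes called in both fractions, 786 (6.48%) had opposite directions. Tested as an interaction, the difference between lines was unequal in the 2 fractions for 6821 genes (33.3%), more positive in the nucleus for 4089 (20.0%) and more negative for 2732 (13.4%).

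That split depended on scaling: 59.9% of called interactions were positive with TMM, 46.3% with DESeq2 size factors and 48.6% with upper quartile scaling, so no balance of directions can be read from it. lncRNA calls numbered 2562 in the nucleus and 1834 in the cytoplasm, and 1024 lncRNAs, 40% of those called in the nucleus, were not called in the cytoplasm. Over all genes 3325 nuclear calls (21.5%) were not called in the cytoplasm, and among protein-coding genes 1717 (15%). A gene called only in the nucleus is not thereby shown to differ between fractions. Interactions were called for 261 (positive) and 224 (negative) of 3728 lncRNAs, and for 3606 and 2390 of 14414 protein-coding genes. In the NC cytoplasm lncRNAs took 0.576% and 0.562% of counts in SNU-449 and 0.723% and 0.804% in HepG2, less than in the nuclei. NEAT1 had an interaction of 2.40 on the log2 scale (adjusted p = 8.30e-13), with 8.37 and 6.71 CPM in SNU-449 cytoplasm and 80.8 and 111.7 CPM in HepG2 cytoplasm. Its nuclear difference was therefore smaller than its cytoplasmic one.

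The siPANAD nuclear libraries gave the same contrast in other cultures, whose levels do not enter the control fold changes although the fit shares its estimate of spread with them. There 15205 genes were called (74.3%), and 12733 of the control calls were called in the same direction, which is 82.41% of the control calls and 83.74% of the siPANAD calls, while 326 were called in the opposite direction. Of the 8413 genes past 2-fold, 8008 were called in the same direction. Among the genes named above, NEAT1 was no longer called, at -0.24 in the siPANAD nuclei with adjusted p = 0.0856, and neither were FOXA2, RXRA, CCNG1 and HOXA6. MALAT1 was called higher there, at 0.68 (adjusted p = 7.15e-07).

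By chromosome, the median log2 fold change in the nucleus ran from -0.54 on chromosome 16 to 0.65 on chromosome X. On chromosome 16 52.7% of tested genes were lower, and on chromosome 20 there were 24.2% higher and 53.7% lower, with a median of -0.52. On chromosome X 54.9% were higher and 24.9% lower, but among its 69 lncRNAs tested 36.2% were higher and 33.3% lower, with a median of 0.04. In the siPANAD nuclei the medians were -0.47 on chromosome 16, -0.49 on chromosome 20 and 0.73 on chromosome X. In the NC cytoplasm chromosome 19 had the highest median, at 0.54, and chromosome X stood at 0.41.

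**Figure D5:**
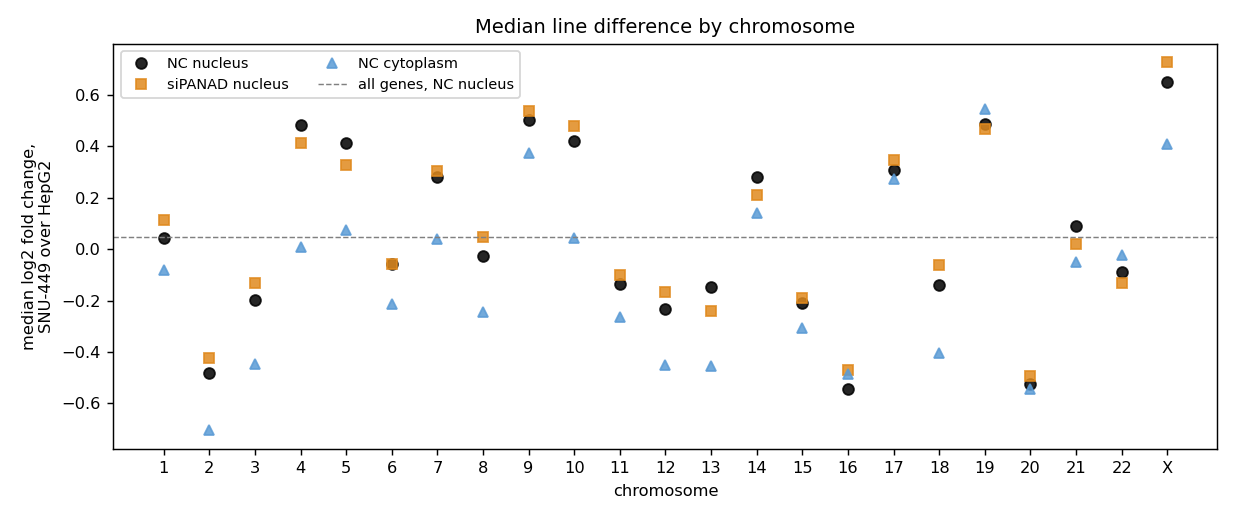
Median log2 fold change of the tested genes of each chromosome, SNU-449 against HepG2, in the NC nucleus, the NC cytoplasm and the siPANAD nucleus. Chromosomes 2, 16 and 20 lie lowest and chromosome X lies highest in the NC nucleus.

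In the plot of chromosome medians, chromosomes 2, 16 and 20 were the 3 lowest and chromosome X the highest in both sets of nuclear libraries. Copy number was not measured in these files, and its part in the medians was not tested.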

How the data were processed

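Nuclear and cytoplasmic RNA of SNU-449 and HepG2 cells was sequenced on directional libraries, per the labels' protocols. The authors deposited unnormalized counts of reads for each gene, a table for either line, made with Trim Galore 0.6.4 and HISAT2 2.2.1 on hg38, per the submitters' processing notes. Which program counted reads, with which strand setting and annotation, is not given in the sources used here. Both tables were joined on gene identifier (67938 in both), leaving out 5 and 3 broken lines. Gene class, position and overlap came from GENCODE 29 on GRCh38.

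All 16 libraries, in 8 groups, were fitted with edgeR 4.0.16 (R 4.3.3, limma 3.58.1; TMM, filterByExpr with a minimum count of 10, robust quasi-likelihood fit, two-sided tests, Benjamini-Hochberg adjustment over 20459 genes). The script was tested on simulated data. p-values rest on a spread between the 2 libraries of a group that was estimated over all 8 groups and moderated across genes, not on the compared groups alone. Where a line had 0 counts the fold is a bound against 3 counts summed over its 2 libraries, and with 1 to 3 counts it is a ratio with an exact 95% interval, which covers counting error only. In a single nuclear NC library 3 counts corresponded to 0.128 to 0.148 TMM-scaled CPM.

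Named genes were 9 set genes, per direction the 10 protein-coding and 6 lncRNA genes with the largest change among those with at least 10 counts in the lower line, the 8 and 6 most abundant in 1 line and near 0 in the other, 3 members per list, and the 5 protein-coding and 3 lncRNA genes with the largest interaction. Other list members named were chosen after their values were seen. The comparison, the members and the lists were chosen with earlier results of these data known. Alternatives were DESeq2 1.42.0, library totals, upper quartile scaling, other filters, other sets of libraries, a replicate block, a 2-fold test and leaving out each nuclear NC library. No cytoplasmic library was left out. Some members of the lists are counted but not reported here by name.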

Additional observations from a re-analysis of the deposited data

Results flagged for a closer look

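These 20 genes differed between fractions: the log2 fold change of SNU-449 over HepG2 in the nucleus, minus that in the cytoplasm, passed the interaction test of edgeR's quasi-likelihood fit. All 20 kept their sign in 11 of 11 settings, none of which left out a cytoplasmic library. The HepG2 cytoplasm NC pair differed most between replicates. Its chi-square per degree of freedom was 33, against 12.3 or less in the other groups. Most had 0 counts in both NC libraries of a cytoplasmic group, so the size of their fitted value depends on the prior count and is no bound. In SNU-449 cytoplasm these were ALB, BEST4, DIO1, SLC7A9, UGT1A6, SMIM24, LINC01291, BOK-AS1 and ENSG00000263990. In HepG2 cytoplasm they were TMEFF2, TCEAL3, LYPD1, GYPC and HHIP-AS1.

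Among genes lower in SNU-449 nuclei, the interaction was positive, so the cytoplasmic difference was larger, for ALB (4.97), APOA1 (3.40), NEAT1 (2.40), BEST4, a chloride channel (8.37), DIO1, a thyroid hormone deiodinase (7.28), SLC7A9, an amino acid transporter (6.48), UGT1A6, a glucuronosyltransferase (6.31), SMIM24 (6.22), LINC01291 (7.30) and BOK-AS1 (5.34). UGT1A6 shares 44.0% of its exonic bases with transcripts on the same strand. ALB no longer passed without SNU-449 nucleus NC replicate 2. BOK-AS1 passed in 7 of 11 settings and was lost with upper quartile scaling and without SNU-449 replicate 1, SNU-449 replicate 2 or HepG2 replicate 1.

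Among genes higher in SNU-449 nuclei, the interaction was negative, so the cytoplasmic difference was again larger, for TMEFF2 (-8.36), SMIM5 (-7.38), TCEAL3 (-7.36), LYPD1 (-6.84), GYPC, a red cell membrane protein (-6.59), HHIP-AS1 (-5.93) and ENSG00000230074 (-4.68). LYPD1 shares 48.9% of its exonic bases with a transcript on the opposite strand and no longer passed without HepG2 nucleus NC replicate 1.

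The remaining 3 followed other patterns. ENSG00000267082 was lower in SNU-449 nuclei by more than in cytoplasm (-5.01). ENSG00000263990 was higher in SNU-449 nuclei and lower in SNU-449 cytoplasm (5.18), and no longer passed with DESeq2. MALAT1 did not differ in the nucleus and was lower in SNU-449 cytoplasm (0.88). Its cytoplasmic levels were 4.55 and 3.17 CPM in SNU-449 and 6.88 and 7.27 CPM in HepG2, against 308.6 to 317.5 CPM in nuclei. Carry-over of nuclear RNA into the cytoplasmic fraction was not tested.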

How the results depend on the processing

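Total calls, 15451, were 14243 with DESeq2, 15419 with library totals, 15485 with upper quartile scaling, 16266 without a filter, 12449 at a minimum count of 50, 14414 in a fit of the 4 libraries and 15477 in a fit of the 8 nuclear libraries, and the 2-fold test called 8413 (4295 higher, 4118 lower). Leaving out 1 library gave 14528 to 14847 calls (7516 to 7740 higher, 6954 to 7111 lower), with the lone sample of that group assumed to vary like the other groups. lncRNA calls, 2562, were 1295 at a minimum count of 50 (553 higher, 742 lower), 1700 in the 2-fold test (740 higher, 960 lower) and 2353 to 2437 without 1 library (1054 to 1107 higher, 1287 to 1358 lower); fewer genes are tested at the higher minimum. Interaction calls, 6821, were 1094 past 2-fold (732 positive, 362 negative) and 6051 to 6559 without 1 library (3675 to 3852 positive, 2238 to 2707 negative). The split of interactions moved with scaling: 2913 positive and 3373 negative with DESeq2, 3288 and 3471 with upper quartile scaling, and 5186 and 1913 with library totals, which also moved the median of all genes in the nucleus to 0.15.

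With the replicate number as a block, 15396 genes (7957 higher, 7439 lower), 2547 lncRNAs and 6715 interactions were called. That block was a single term shared by both lines. Replicate deviations of the 2 nuclear groups had a correlation of -0.0814, which cannot show whether the numbers stand for a pairing. The main fit did not pair nucleus with cytoplasm, whose deviations had correlations of -0.0122 in SNU-449 NC and 0.0497 in HepG2 NC. The MALAT1 value of -0.00 became 0.0943 with library totals, 0.0307 with upper quartile scaling, 0.0008 at a minimum count of 50, -0.0143 to 0.0324 without 1 library and 0.68 in the siPANAD nuclei, where it was called higher in SNU-449 (adjusted p = 7.15e-07). In the siPANAD nuclei PHLDA3 (-0.53) and BBC3 (-0.63) were called in the other direction and CCNG1 (-0.0446, adjusted p = 0.756) was not called, and the cause was not tested. SMIM5 (0.69, adjusted p = 0.0803) and BBC3 (0.12, adjusted p = 0.476) no longer passed without HepG2 replicate 1, and BBC3 was at 0.30 with DESeq2 (adjusted p = 0.0513). ENSG00000263990 was at 0.27 in the siPANAD nuclei (adjusted p = 0.284). A gene at 0 counts is not shown to be absent.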
